A study of Mus musculus with 2 samples.

Results

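The genes described here are 36 genes of the skeletal muscle sarcomere and of muscle metabolism, chosen by symbol from a table of RPKM values (read counts scaled to the length of the exon model and to the size of the library) of mouse tongue. Of these, 34 had a row in the table, which held 18498 rows in all. *Myl2* and *Myl3*, the light chains of slow muscle myosin, had no row in the table used here and were not analysed. The table compares the circumvallate papillae (CvP), the trench-shaped papillae at the back of the tongue that hold many taste buds, with tongue epithelium that holds no papillae (Epi). Both RNA samples came from C57BL/6J mice aged 12 to 30 weeks, and no treatment or altered allele is named for either. The paper names male mice of this age for its RT-PCR of the CvP, and a normal chow diet for its mice in general. RNA of at least 20 mice was pooled for each tissue and made into 1 poly(A) library, so each tissue had 1 value per gene. Every difference below is between these 2 libraries, there is no replicate check, and no p-value was calculated. The libraries held an estimated 28400000 (CvP) and 27900000 (Epi) mapped reads. The 6 taste cell genes examined had RPKM values of 16.8 to 127 in the CvP and of at most 4.53 in the Epi, and the 6 keratinocyte genes were above 88 in both. Most of the table was slightly higher in the CvP, with a median Epi/CvP ratio of 0.762 (log2 -0.39) over the 10363 rows with an RPKM of at least 1 in both.

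Skeletal muscle fibres contract by the sliding of myosin thick filaments along actin thin filaments within the sarcomere, under the control of calcium, troponin and tropomyosin. Fast and slow fibres build this machine from different paralogs of myosin, troponin and the calcium pump, while actin, titin, nebulin and desmin are common to both. The body of the tongue is skeletal muscle, and its intrinsic fibres insert into the connective tissue beneath the epithelium. Adult tongue muscle in rodents is made mostly of fast fibres.

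The muscle genes were higher in the Epi. Of the 34 genes with a row, 32 had a higher RPKM in the Epi and 2 had a lower one. The limit of a difference was set at a ratio above 3. By this limit 25 genes were higher in the Epi, 1 was higher in the CvP, 6 lay within 3-fold and 2 had 3 or fewer estimated reads in both libraries. Over all 18033 rows with a value above 0, 2.43% were higher in the Epi by this limit and 19.6% were higher in the CvP. The median log2 Epi/CvP ratio of the 34 genes was 3.38 (10.4-fold), beside a median of -0.64 over all rows above 0. Set against the table's own median of 0.762, 27 genes were past 3-fold in the Epi and 1 in the CvP. For 19 of the 25 genes the whole 95% interval of the ratio lay above 3. These intervals were exact binomial intervals of the estimated reads, widened by the rounding of RPKM to 2 decimals, and they cover no difference between animals. In pooled bulk RNA, fewer muscle cells and less muscle RNA per cell cannot be told apart.

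The levels were low in both libraries. The RPKM values of the 34 genes summed to 110 in the Epi, or 0.0268% of the summed RPKM of all rows, and to 15.4 in the CvP, or 0.00452%. In the Epi 17 of the genes had an RPKM of at least 1, and in the CvP 3 did, namely *Tnni2*, *Mylpf* and *Eno3*. The highest gene in the Epi was *Acta1*, which held rank 3572 of all rows.

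**Figure D1:**
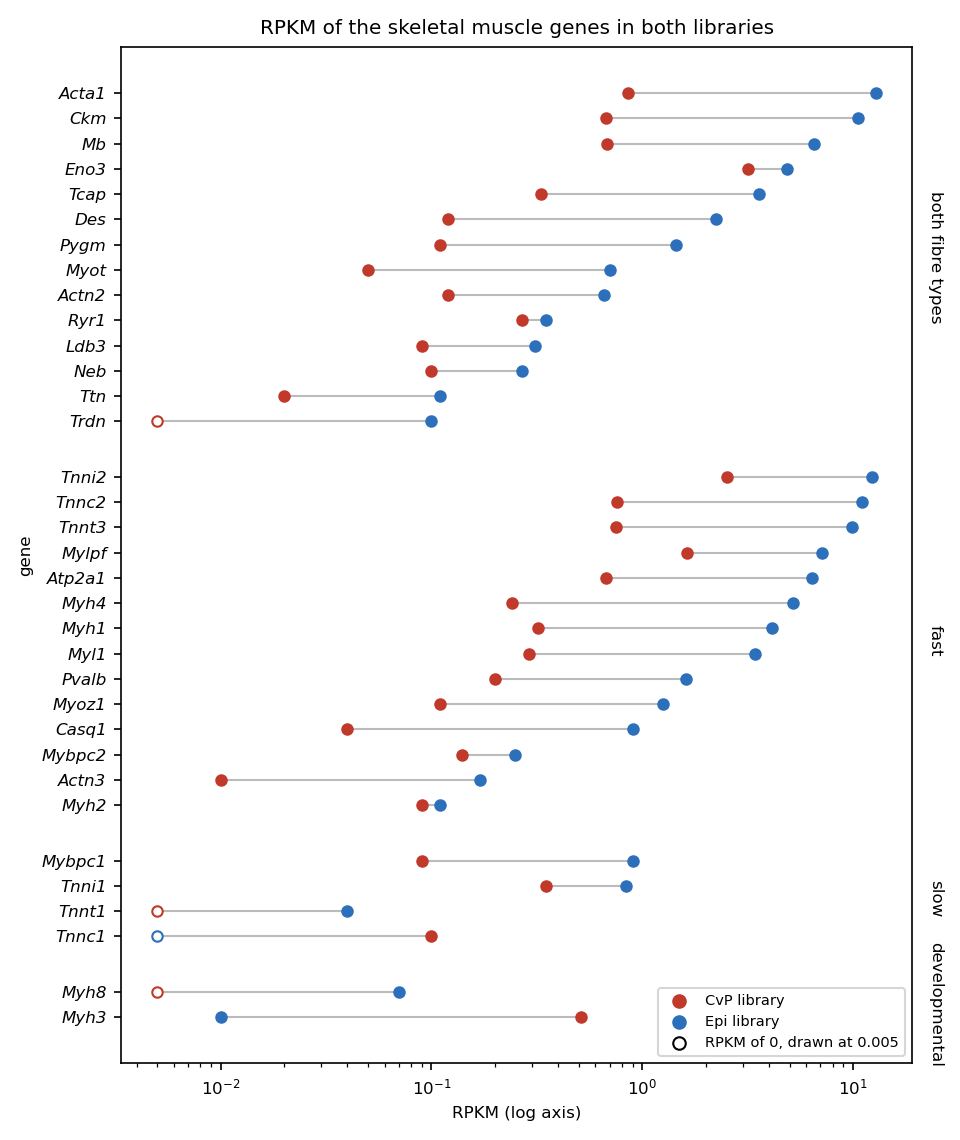
RPKM (log axis) of the 34 muscle genes with a row, 1 line per gene grouped by fibre class, in the CvP (red) and Epi (blue) library. An open circle stands for an RPKM of 0. The blue point lies to the right of the red point in 32 genes, and *Myh3* and *Tnnc1* are the 2 exceptions.

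Genes that both fibre types use were the first group of 14. All 14 had a higher RPKM in the Epi, and 11 of them by more than 3-fold. Their median log2 Epi/CvP ratio was 3.35 with *Trdn*, which had no CvP reads, ranked above all others. It was 2.86 with *Trdn* set against 3 reads in the CvP. *Acta1*, the skeletal muscle actin of the thin filament, measured 0.86 RPKM in CvP against 12.9 RPKM in Epi, about 35 and 515 reads. Its Epi/CvP ratio was 15.0 (95% interval 10.6 to 21.7). *Ckm*, the muscle creatine kinase that regenerates ATP, measured 0.67 RPKM in CvP against 10.6 RPKM in Epi, a ratio of 15.8 (10.6 to 24.1). *Mb*, which encodes the oxygen-binding myoglobin, was at 0.68 and 6.52, a ratio of 9.59 (6.23 to 15.2). These 3 genes were the highest of the group in the Epi and stayed below an RPKM of 1 in the CvP.

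The genes of the Z-disc, the plate that anchors the thin filaments, were all higher in the Epi. *Tcap* (telethonin, which caps titin) measured 0.33 RPKM in CvP against 3.59 RPKM in Epi, a ratio of 10.9 (5.42 to 24.2). *Des*, the intermediate filament desmin that links neighbouring Z-discs, was at 0.12 and 2.25, a ratio of 18.8 (9.26 to 40.6). *Myot* (myotilin) was at 0.05 and 0.70, a ratio of 14.0 (4.66 to 73.4). *Actn2*, the alpha-actinin that crosslinks actin in all fibres, had a smaller ratio, at 0.12 and 0.66 with a ratio of 5.50 (2.82 to 12.3). For *Ldb3*, a scaffold of the same structure, RPKM was 0.09 and 0.31 and the ratio was 3.44 (1.78 to 6.96). All 5 genes were past 3-fold, but the intervals of *Actn2* and *Ldb3* extended below it.

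The giant proteins of the sarcomere and the calcium release channel had ratios below the group's median, also with *Trdn* set against 3 reads (log2 2.86). *Ttn*, which encodes titin, the spring between Z-disc and M-line, measured 0.02 RPKM in CvP against 0.11 RPKM in Epi. Since its exon model is 104 kb long, these values stand for about 59 and 320 reads, and the ratio was 5.50 (3.25 to 10.5). *Neb* (nebulin, which runs along the thin filament) was at 0.10 and 0.27, a ratio of 2.70 (1.90 to 3.91). *Ryr1*, the ryanodine receptor that releases calcium from the sarcoplasmic reticulum, was at 0.27 and 0.35, about 118 and 150 reads. Its ratio was 1.30 (0.987 to 1.71), so a difference was not detectable at this depth, although the interval lay wholly below those of *Acta1* and *Ckm*. *Trdn* (triadin, a partner of *Ryr1* in the same membrane) had no CvP reads and about 13 in the Epi. Set against the worth of 3 reads in the CvP, it was at least 4.27-fold higher in the Epi, and the lower limit of its counting interval was 2.83.

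Among the enzymes of energy supply, *Pygm*, the muscle glycogen phosphorylase, measured 0.11 RPKM in CvP against 1.45 RPKM in Epi, a ratio of 13.2 (6.61 to 29.1). *Eno3*, the muscle enolase of glycolysis, stood apart. It had the highest CvP value of all 34 genes, 3.18, beside 4.88 in the Epi, and the ratio was 1.53 (1.24 to 1.91). Its listed exon model of 3.48 kb was 2.22 times as long as the longest annotated transcript (1.56 kb), and it was not compared with the union of all annotated exons. *Ckm* and *Pygm* thus differed by more than 10-fold and *Eno3* by less than 3-fold.

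The 14 genes of fast fibres were all higher in RPKM in the Epi, 12 of them by more than 3-fold, with none past 3-fold in the CvP. Their median log2 Epi/CvP ratio was 3.53 (11.6-fold), and the RPKM values summed to 7.78 (CvP) and 63.8 (Epi). The fast troponin subunits, which make the thin filament answer to calcium, were among the highest muscle genes in the Epi. *Tnni2*, the inhibitory subunit, measured 2.53 RPKM in CvP against 12.3 RPKM in Epi, a ratio of 4.86 (3.61 to 6.77). *Tnnt3*, the tropomyosin-binding subunit, which lies near it on chromosome 7 of NCBI37/mm9 with *Lsp1* between them (*Tnni2* from 149628373 to 149630310 and *Tnnt3* from 149684741 to 149701914), was at 0.75 and 9.85, a ratio of 13.1 (8.58 to 21.0). *Tnnc2*, the calcium-binding subunit, was at 0.76 and 11.1, a ratio of 14.6 (8.60 to 26.4). The interval of *Tnni2* lay wholly below those of its 2 partners, although the 3 subunits had similar Epi levels. In the GENCODE M1 annotation, 592 of the 800 exon bases of *Tnnc2* are shared with *Ube2c* on the opposite strand. *Ube2c* measured 4.32 RPKM in CvP against 2.69 RPKM in Epi, and the counting is not stated to separate strands.

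The light chains of fast myosin followed. *Mylpf*, the regulatory light chain, was the second highest fast gene in the CvP, at 1.63 RPKM, and measured 7.12 RPKM in Epi. Its ratio was 4.37 (3.0 to 6.49). *Myl1*, the essential light chain, was at 0.29 and 3.42, a ratio of 11.8 (5.96 to 26.2). *Tnni2* and *Mylpf* had the highest CvP values and the smallest ratios among the 10 fast genes with an Epi RPKM of at least 1.

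Fast fibre genes of calcium handling were higher in the Epi as well. *Atp2a1*, the calcium pump SERCA1 that refills the sarcoplasmic reticulum, measured 0.67 RPKM in CvP against 6.41 RPKM in Epi, about 65 and 615 reads, and a ratio of 9.57 (7.44 to 12.6). Its exons share 763 bases with *Rabep2* on the opposite strand, itself at 9.72 RPKM (CvP) and 8.63 RPKM (Epi). Opposite-strand overlaps are also annotated for *Ckm* (451 of 1415 exon bases) and for *Des*, *Mb*, *Casq1*, *Ttn*, *Ryr1*, *Myh1* and *Myh2*. Of the 21 muscle genes that neither overlap another gene's exons nor belong to the heavy chains, 15 were past 3-fold in the Epi and 0 in the CvP. *Casq1* (calsequestrin, the calcium store) was at 0.04 and 0.90, and the ratio of 22.5 rested on about 2 reads in the CvP, with an interval from 6.26 to 203. *Pvalb*, the calcium buffer parvalbumin of the fastest fibres, was at 0.20 and 1.61, a ratio of 8.05 (3.21 to 26.4). Of these 3 genes, *Atp2a1* was the most precisely measured.

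The remaining fast fibre genes were low. *Myoz1*, a Z-disc protein, measured 0.11 RPKM in CvP against 1.25 RPKM in Epi, a ratio of 11.4 (4.17 to 43.8). *Actn3*, the alpha-actinin of fast fibres, was at 0.01 and 0.17, with a ratio of 17.0 that rested on 1 read in the CvP (interval 2.17 to 562). *Mybpc2*, the fast myosin-binding protein C of the thick filament, was at 0.14 and 0.25, and the interval of its ratio of 1.79 ran from 0.908 to 3.78. For *Mybpc2* a difference was not detectable at this depth.

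The 6 slow fibre genes gave little signal. Besides the pair with no row, *Tnnt1* and *Tnnc1*, the slow troponin T and troponin C, had about 1 read in the Epi alone and about 2 reads in the CvP alone, so no ratio was calculated. *Tnni1*, the slow troponin I, measured 0.35 RPKM in CvP against 0.84 RPKM in Epi, a ratio of 2.40 (1.15 to 5.39). *Mybpc1*, the slow myosin-binding protein C, was at 0.09 and 0.90, about 10 and 98 reads, and its ratio was 10 (5.19 to 21.4). It was the single slow gene past 3-fold. The median log2 ratio of the 4 slow genes with a row was 2.29, beside 3.53 for the 14 fast genes, and with 2 of the 4 at or under 3 reads this difference was not tested. The slow median fell to 0.77 with a pseudocount of 0.1 RPKM.

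Within each library the fast genes outweighed the slow ones. Fast genes made up 97.3% of the summed RPKM of fast and slow genes in the Epi and 93.5% in the CvP. These shares lack the slow light chains and count 14 fast against 4 slow genes. They also leave out *Myh7* and *Atp2a2*, the heavy chain and pump of slow fibres, while *Myh1*, *Myh2*, *Myh4* and *Atp2a1* count as fast. Pairs of paralogs that do the same work in each fibre type were compared by the odds ratio of their estimated reads, with exact conditional intervals, for the 6 of 8 pairs in which both had a row. *Tnni2* was 7.23 times as high as *Tnni1* in CvP and 14.6 times in Epi, and the odds ratio was 2.01 (0.839 to 4.57). *Mybpc2* over *Mybpc1* went the other way. The fast paralog was 1.56 times as high as the slow one in CvP and 0.278 times in Epi, an odds ratio of 0.185 (0.0649 to 0.507). For the calcium pumps, *Atp2a1* over *Atp2a2* was 0.0103 (CvP) and 0.116 (Epi), an odds ratio of 11.4 (8.77 to 14.9). *Atp2a2*, which slow fibres share with most non-muscle cells, measured 65.3 RPKM in CvP against 55.3 RPKM in Epi. *Tnnc2* over *Tnnc1* had a lower limit of 2.44 with no *Tnnc1* read in the Epi, and *Tnnt3* over *Tnnt1* was 246 in the Epi on 1 *Tnnt1* read, with none in the CvP. *Myh4* over *Myh7*, the slow heavy chain, was 3.43 (CvP) and 521 (Epi), an odds ratio of 126 (26.7 to 1190). The interval of the odds ratio lay above 1 for *Atp2a1*, *Myh4* and *Tnnc2*, below 1 for *Mybpc2*, and held 1 for *Tnni2* and for *Tnnt3* (0 to 505). That of *Tnnc2* rested on about 2 *Tnnc1* reads, all in the CvP. Since *Atp2a2* is not particular to muscle, the *Atp2a1* pair does not measure fibre type alone.

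The myosin heavy chains, the motors of the thick filament, differed most among themselves. *Myh3* (embryonic), *Myh2* (type IIa), *Myh1* (type IIx), *Myh4* (type IIb) and *Myh8* (perinatal) lie in this order on the plus strand of chromosome 11 of NCBI37/mm9, from 66891802 to 67122135, a stretch of 230 kb. *Myh4* measured 0.24 RPKM in CvP against 5.21 RPKM in Epi, about 41 and 875 reads, a ratio of 21.7 (15.8 to 30.5). *Myh1* was at 0.32 and 4.12, a ratio of 12.9 (9.71 to 17.5). These neighbours, the heavy chains of the faster fibres, were the most deeply read muscle genes of the Epi. Between them and *Myh3* lies *Myh2*, at 0.09 RPKM in CvP against 0.11 RPKM in Epi, with a ratio of 1.22 (0.551 to 2.72), and no difference was detectable.

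The 2 developmental heavy chains went in opposite directions. *Myh8* had no CvP reads and about 12 in the Epi (RPKM 0.07), so that it was at least 4.07-fold higher in the Epi when set against 3 reads, with a lower limit of 2.83 for the counting interval. *Myh3* measured 0.51 RPKM in CvP against 0.01 RPKM in Epi, about 87 and 2 reads. Its CvP/Epi ratio was 51.0 (11.4 to 3420), and it was the single muscle gene past 3-fold in the CvP. Reads of 75 bases can match more than 1 of these paralogs. With up to 2 differences allowed, 10.6% of the 75-base windows of the *Myh3* transcript were found in a transcript of another gene, against 44.3% for *Myh1*, 40.2% for *Myh2*, 31.6% for *Myh8* and 30.7% for *Myh4*. How such reads were assigned is not given in the sources used here, so the levels of these 5 genes are uncertain. For *Myh7*, the slow heavy chain set beside *Myh4* above, 37.6% of the windows matched another gene, and its level is uncertain as well.

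Among the 6 sarcomeric heavy chain genes compared, the share of each in the summed RPKM differed between the libraries. In the Epi *Myh4* held 54.7% and *Myh1* 43.2%, while *Myh3* held 0.105%. In the CvP *Myh3* held 41.5%, *Myh1* 26.0% and *Myh4* 19.5%. *Myh7*, which was not among the 36 genes, had about 12 reads (CvP) and 2 reads (Epi), or 0.07 and 0.01 RPKM. Its CvP/Epi ratio was 7.0, with a wide interval of 1.31 to 505. The 6 genes summed to 1.23 RPKM (CvP) and 9.53 RPKM (Epi).

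**Figure D2:**
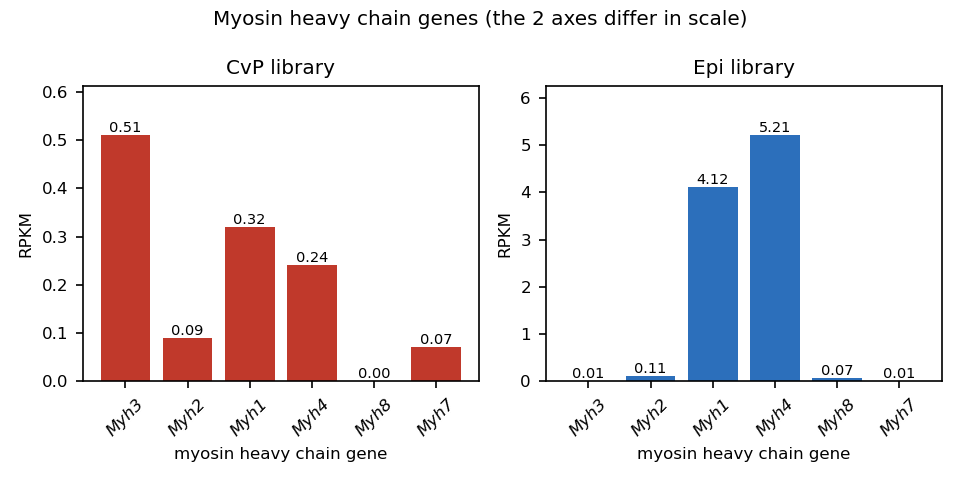
RPKM of 6 myosin heavy chain genes in the CvP (left, red) and Epi (right, blue) library, on axes of different scale that both start at 0. *Myh3* is the tallest bar in the CvP (0.51), and *Myh4* (5.21) and *Myh1* (4.12) are the tallest in the Epi.

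The 250 bases before the transcription start are shown for *Acta1*, the highest muscle gene of the Epi, and for 4 neighbours of the heavy chain cluster that differed in their ratios. The sequences are those of RefSeq on build GRCm38.p6, 5′ to 3′ along each gene, and they end at the base before the start. They lie at chr8:123894776-123895025 (minus strand), chr11:67237562-67237811, chr11:67199852-67200101, chr11:67170777-67171026 and chr11:67078050-67078299 (plus strand). Capitals mark the letters TATAAA, the MEF2 box (the binding motif of the MEF2 factors of muscle) and the CArG box (that of serum response factor), searched on both strands.
Acta1: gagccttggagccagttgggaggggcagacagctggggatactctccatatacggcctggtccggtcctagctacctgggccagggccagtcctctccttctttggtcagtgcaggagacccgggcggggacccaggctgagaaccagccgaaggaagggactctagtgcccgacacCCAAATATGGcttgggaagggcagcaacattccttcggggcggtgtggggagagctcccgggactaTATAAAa
Myh4: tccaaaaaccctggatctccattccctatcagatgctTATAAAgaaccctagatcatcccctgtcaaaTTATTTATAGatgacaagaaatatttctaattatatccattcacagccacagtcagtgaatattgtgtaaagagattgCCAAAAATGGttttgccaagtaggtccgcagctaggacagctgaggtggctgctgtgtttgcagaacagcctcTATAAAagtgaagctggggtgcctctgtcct
Myh1: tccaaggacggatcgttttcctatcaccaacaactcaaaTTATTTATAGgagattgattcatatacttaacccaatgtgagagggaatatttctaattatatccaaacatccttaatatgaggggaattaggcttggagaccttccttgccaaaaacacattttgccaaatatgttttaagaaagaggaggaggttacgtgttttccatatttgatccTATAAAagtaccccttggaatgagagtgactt
Myh2: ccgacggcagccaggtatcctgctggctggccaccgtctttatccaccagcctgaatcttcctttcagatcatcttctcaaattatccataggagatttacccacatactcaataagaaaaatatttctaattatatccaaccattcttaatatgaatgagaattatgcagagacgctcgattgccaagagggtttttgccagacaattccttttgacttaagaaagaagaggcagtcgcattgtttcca
Myh3: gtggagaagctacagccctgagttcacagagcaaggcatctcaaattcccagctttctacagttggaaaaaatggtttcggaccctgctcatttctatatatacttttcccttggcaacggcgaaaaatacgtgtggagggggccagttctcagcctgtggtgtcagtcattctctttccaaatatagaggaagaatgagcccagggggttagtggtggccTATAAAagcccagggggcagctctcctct

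*Myh4* and *Myh1* each held a MEF2 box and a TATAAA on the plus strand whose first base was 31 or 32 bases before the start. *Acta1*, with an Epi/CvP ratio of 15.0, held no MEF2 box, and a relation of motifs to ratios was not tested. The MEF2 box of both also contains TATAAA on the opposite strand. *Myh4* and *Acta1* each held a CArG box, and in *Acta1* TATAAA ended 2 bases before the start listed by RefSeq. *Myh3* held TATAAA from base 29 before the start, and the window of *Myh2*, which ends at the start listed by RefSeq, held none of the 3. Letters at the end of the *Myh2* window resemble a stretch of *Myh1* that lies before the plus-strand TATAAA of *Myh1*. Bases after the listed *Myh2* start were not searched. RefSeq windows were found for 28 of the 36 genes, 34 windows in all. A MEF2 box was in 5 of the 34 (14.7%), beside 2.92% of all 32851 windows of the same length. The genes with one were *Myh1*, *Myh4*, *Myh8*, *Pvalb* and *Ttn*. A CArG box was in 5 (14.7%, against 1.47%) and TATAAA in 8 (23.5%, against 12.4%). The E-box CANNTG, the motif of the myogenic factors, was in 28 of the 34 (82.4%) and in 66.2% of all windows. These are letter matches and show no binding.

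Muscle genes outside the 36 were examined with a list of 44, of which 42 had a row. Of these, 16 were more than 3-fold higher in the Epi, 3 were more than 3-fold higher in the CvP, 22 lay within 3-fold and 1 was at or under 3 reads in both. The median log2 Epi/CvP ratio was 1.42. It was 1.00 with the genes at 0 in the CvP set against 3 reads and the gene at or under 3 reads left out. The whole interval lay past 3-fold for 6 of the 16 and for 1 of the 3. Those past 3-fold in the Epi with an RPKM of at least 1 there were *Cox6a2*, *Cox8b*, *Sln*, *Ckmt2*, *Fhl1* and *Fabp3*. *Cox6a2*, the muscle form of a cytochrome oxidase subunit, measured 0.21 RPKM in CvP against 2.72 RPKM in Epi, a ratio of 13.0 (4.67 to 48.5). *Ckmt2*, the creatine kinase of muscle mitochondria, was at 0.21 and 1.93, a ratio of 9.19 (4.53 to 20.5). *Sln* (sarcolipin, a regulator of the calcium pump) was at 0.34 and 2.76, a ratio of 8.12 (3.21 to 25.8). *Cox8b* had a ratio of 7.83 (2.36 to 38.9), *Fabp3*, the fatty acid-binding protein of muscle, one of 7.88 (2.47 to 42.2) and *Fhl1* one of 3.22 (2.25 to 4.73).

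The genes of this list with the highest levels are ones that many other cells use as well. The tropomyosins, calcium pump and phosphofructokinase among them, *Tpm2* (46.9 RPKM in CvP and 55.2 in Epi), *Tpm3* (33.4 and 28.2), *Atp2a2* and *Pfkm* (5.73 and 6.57), lay within 3-fold. *Tpm1* (34.9 and 9.92, CvP/Epi ratio 3.52 with an interval from 3.25 to 3.81) and *Jph1* (2.23 and 0.51, ratio 4.37) were past 3-fold in the CvP, as was *Myh7*. The listed exon models of *Tpm1* and *Jph1* were 4.45 and 2.19 times as long as their longest annotated transcripts. The myogenic factors *Myod1*, *Myog*, *Myf6* and *Pax7* had 2 or fewer estimated reads in either library, and *Myf5* had no row. *Mef2a* (14.7 and 9.46) and *Mef2c* (0.09 and 0.22) lay within 3-fold.

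**Figure D3:**
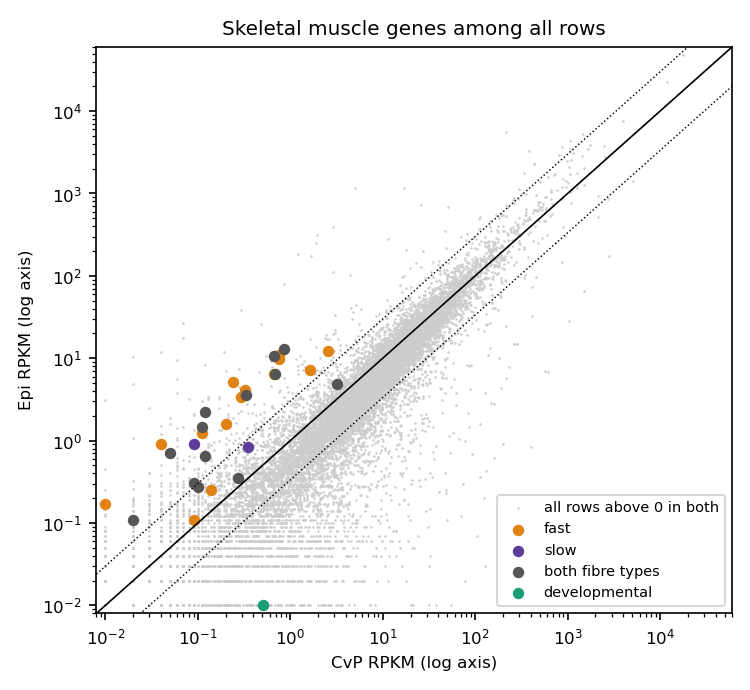
Epi RPKM against CvP RPKM (log axes) for all rows above 0 in both libraries (grey), with the muscle genes above 0 in both coloured by fibre class. The solid line marks equal RPKM and dotted lines a 3-fold difference. Most muscle genes lie above the upper dotted line at an Epi RPKM of at most 12.9, and *Myh3* lies at the lower edge.

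Markers of other cell types were read beside the muscle genes. Over all rows above 0, 2.43% were past 3-fold in the Epi and 19.6% in the CvP. Of 7 smooth muscle genes with a row, 1 was past 3-fold (*Myh11*, 0.02 RPKM in CvP and 0.11 in Epi), and their RPKM summed to 18.9 (CvP) and 24.1 (Epi), mostly from *Smtn* (16.6 and 22.2). Of 8 cardiac genes, 2 were past 3-fold, both in the CvP (*Tnni3* and *Ryr2*), with sums of 12.0 and 18.7. *Tnni3* rested on about 13 and 3 reads (CvP/Epi interval 1.17 to 23.3). *Ryr2* had about 10 reads in the CvP, and its ratio of 3.13 was set against 3 reads, since the Epi was at 0. The interval of *Ryr2* held 1 (lower limit 0.785). *Myh6*, a cardiac heavy chain, was listed at 0 in the Epi, but *Myl7* (7.17 and 11.4) and *Tnnt2* (3.31 and 6.28) were not low. The listed exon model of *Tnnt2* was 11.6 times as long as its longest annotated transcript. Of 6 fibroblast genes, 4 were past 3-fold in the Epi and 1 in the CvP. The latter was *Pdgfra*, at 1.30 and 0.07, a CvP/Epi ratio of 18.6 (10.5 to 39.1). The sums of 27.5 and 128 came mainly from *Dcn* (26.1 and 128). *Lum* was listed at 0 in the CvP, and *Col1a1*, *Col1a2* and *Col3a1* were at 0.25 or below in both. The whole interval lay past 3-fold for *Dcn* and *Pdgfra* alone. Of 5 adipocyte genes, 1 was past 3-fold in the Epi (*Fabp4*, 0.17 and 3.24), which made up most of the sums of 0.21 and 3.34. *Adipoq*, *Plin1* and *Cidec* were listed at 0 in the CvP and had 2 or fewer reads in the Epi (0.05 RPKM or below). *Lep* had about 4 reads in the CvP and was listed at 0 in the Epi. Of 5 endothelial genes, 2 were past 3-fold in the CvP (*Tek* and *Vwf*), with sums of 7.28 and 0.36, and *Pecam1*, *Cdh5* and *Kdr* lay within 3-fold. Of the keratinocyte genes, 2 of 6 (*Krt76* and *Krt14*) were past 3-fold in the Epi, while *Krt13*, *Krt4* and *Krt5* lay within 3-fold. All 6 taste genes were past 3-fold in the CvP. The gland genes *Lipf* (1.96 and 313) and *Amy1* (0.85 and 80.5), chosen after their values were seen, were also higher in the Epi. The part of these other cell types in the muscle gene ratios was not tested.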

How the data were processed

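Poly(A) RNA libraries were analysed, 1 from the CvP and 1 from the Epi, each from pooled RNA. The authors mapped 75-base single-end reads to NCBI37/mm9 with Bowtie 0.12.7 (also named in the submitters' processing notes) and deposited RPKM values from ERANGE, whose options are not given in the sources used here. The table also holds the authors' CvP/Epi quotient, which was not used. Where a symbol had several rows, the row with the highest summed RPKM was taken.

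Mapped reads were estimated from the RPKM worth of 1 read in the 163 rows of 0.1 kb. Reads per gene were estimated from the listed length, or from the longest GENCODE M1 transcript (NCBIM37, the same build) where that was shorter, and are approximate. The 95% intervals of ratios are Clopper-Pearson intervals, and for single ratios a library at 0 was set to the worth of 3 reads. Medians used the plain quotient unless stated, so a gene at 0 in 1 library ranked beyond all others. A row was called different at a ratio above 3, with no pseudocount. No test was run, since each group had 1 library. Interval and depth code was tested on simulated data. The genes and lists were chosen with earlier results of these data known. All 36 genes were named. Of each other list the names come from the up to 5 genes with the highest RPKM. Not all of these were named for the smooth muscle and cardiac lists, and none for the taste list. Of the muscle and myogenic lists every gene past 3-fold with an RPKM of at least 1 was named as well. *Chrng*, *Col1a2*, *Myf5*, *Myh6*, *Myh7*, *Myod1*, *Ryr2*, *Lipf*, *Amy1*, *Lsp1* and the overlapping genes fall outside this rule and were named after their values were seen. Alternatives were other pseudocounts, filters, scalings, folds and lengths. Python 3.11.15, numpy 2.4.6, pandas 2.3.3, scipy 1.17.1 and matplotlib 3.10.9 were used.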

Additional observations from a re-analysis of the deposited data

How the results depend on the processing

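No paired analysis was possible because there was 1 library per tissue and nothing was tested. For the same reason no replicate could be left out. The 32 muscle genes with more than 3 reads kept their direction under division by the median ratio, by the trimmed mean ratio and by the ratio of the summed RPKM (3 scalings). The count of muscle genes past 3-fold in the Epi was 25, with 20 to 27 under a pseudocount of 0.1, the 3 scalings, summed rows and minimum folds of 2 and 5. It was 12 with a pseudocount of 1, 13 with a mean RPKM of at least 1, 2 with an RPKM of at least 1 in both libraries (which leaves 3 genes) and 15 of 21 without genes that overlap another gene or belong to the heavy chain cluster, an alternative added after the data were seen. The count in the CvP, 1, was 0 with a pseudocount of 1 and with both filters, which *Myh3* does not pass. The median log2 ratio of the muscle genes, 3.38, was 0.84 with a pseudocount of 1, and 3.26 when the genes at 0 in the CvP stood at their lower bound and those at or under 3 reads were left out. That of the fast genes, 3.53, was 1.70 with a pseudocount of 1 and 2.20 with an RPKM of at least 1 in both libraries, a filter that leaves no slow gene. That of the slow genes, 2.29, was 0.77 and 0.25 with pseudocounts of 0.1 and 1. Of the other muscle genes, 16 were past 3-fold in the Epi, and 7, 1, 0 and 5 with a pseudocount of 0.1, a pseudocount of 1, an RPKM of at least 1 in both libraries and a mean RPKM of at least 1. In the CvP 3 were, and 1 with a pseudocount of 1, with an RPKM of at least 1 in both libraries or with a minimum fold of 5. The share of fast genes, 93.5% (CvP) and 97.3% (Epi), was 96.5% and 98.3% without the highest gene of each class, and 93.5% and 96.4% by estimated reads. With a pseudocount of 1, 25 of the 32 single ratios moved outside their 95% interval. Depth limits the genes with under 20 CvP reads, whose intervals span several-fold.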

Other observations

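Genes of the neuromuscular junction, where motor nerves meet muscle, include the subunits of the acetylcholine receptor and the proteins that anchor it. Of 8 such genes, 4 were more than 3-fold higher in the CvP, beside 19.6% of all rows above 0, 4 were at or under 3 reads in both libraries and none was past 3-fold in the Epi, by ratio alone, with summed RPKM of 3.16 (CvP) and 0.69 (Epi). *Chrnd*, the delta subunit of the muscle acetylcholine receptor, measured 1.07 RPKM in CvP against 0.01 RPKM in Epi, about 88 and 1 reads, a CvP/Epi ratio of 107 (95% interval 15.1 to 3460). *Chrnb1*, the beta subunit, was at 1.86 and 0.57, a ratio of 3.26 (2.23 to 4.95). *Chrna1*, the alpha subunit, was at 0.12 and 0.02, a ratio of 6.00 (1.58 to 66.5). *Rapsn*, a scaffold that clusters the receptor, was at 0.08 and 0.02 on about 4 and 1 reads, and its interval held 1 (0.389 to 155). Of the 4 genes, the whole interval lay past 3-fold for 1, *Chrnd*. *Chrng* was listed at 0 in both libraries. *Myh3* and *Chrnd* had about 87 and 88 reads in the CvP and 2 or fewer in the Epi. Their exon models are 5.99 and 2.91 kb long, so the CvP levels differed, at 0.51 and 1.07 RPKM. The 2 genes were set side by side after their values were seen, and a relation between them was not tested.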
